A study of Mus musculus with 6 samples.

Results

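The Schlafen genes are a mouse gene family, and 7 of them were followed here out of 19938 genes with a measured level: Slfn1, Slfn2, Slfn3, Slfn4, Slfn5, Slfn8 and Slfn9. They were chosen by symbol. Each had a single probe set annotated to that symbol alone, so all 7 were measured. Values are log2 intensities from 6 Affymetrix arrays, 3 from sanroque and 3 from wild-type mice. The sanroque mice were Roquinsan/san, homozygous for a point mutation of Roquin, the RNA-binding repressor encoded by Rc3h1, which they carry in every cell. The wild-type mice were Roquin+/+. Mice of both groups were 10 weeks old and of C57BL/6 background, with no treatment named in the labels, and each array held RNA of CD8+ T cells sorted from spleen and lymph node by a gate on low CD44 at the cell surface. The labels call the samples biological replicates.

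Schlafen proteins share an amino-terminal core domain that marks the family. They are known as interferon-induced proteins that restrain growth and viral replication. The short members Slfn1 and Slfn2 were first described in developing and resting T cells, and loss of Slfn2 function in mice ends T cell quiescence. Slfn3 and Slfn4 are of intermediate length, and Slfn4 is known mainly from macrophages and other myeloid cells. Slfn5, Slfn8 and Slfn9 are the long members, with a helicase-like region at the carboxyl end.

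The family lies in a cluster on chromosome 11, in the order Slfn5, Slfn9, Slfn8, Slfn10-ps, Slfn2, Slfn1, Slfn4, Slfn3 and Slfn14 by the RefSeq gene table of GRCm38.p6. The stretches below come from the RefSeq promoter windows of that build, which run from 250 bases before to 50 after each annotated start. They are shown because 1 short stretch was held by the short and intermediate members and another by the long members, while beyond such stretches only the windows of Slfn8 and Slfn9 were alike. Capitals in the first set mark ACTTCCTGG, a stretch noticed on reading these windows and then searched on both strands. It is held by 0.843% of all 32851 windows and, in the family, by Slfn1, Slfn2, Slfn3 and Slfn4. The match is a description of the letters and has no test.
Slfn4, chr11:83175098-83175136, plus strand: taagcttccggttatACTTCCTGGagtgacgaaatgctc
Slfn1, chr11:83116731-83116769, plus strand: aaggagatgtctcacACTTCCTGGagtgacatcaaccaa
Slfn2, chr11:83065042-83065080, plus strand: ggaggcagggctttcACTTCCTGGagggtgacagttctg
Slfn3, chr11:83191273-83191311, plus strand: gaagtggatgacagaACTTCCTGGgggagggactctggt

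Capitals in the second set mark matches on either strand to the core of the interferon-stimulated response element, searched as GAAA, any 2 bases and GAAA. The match is held by 3.44% of all windows and, in the family, by Slfn5, Slfn8 and Slfn9. Only exact matches were counted, so the other members' windows may hold near matches. The Slfn5 match lies beside a run of A.
Slfn5, chr11:82951932-82951971, plus strand: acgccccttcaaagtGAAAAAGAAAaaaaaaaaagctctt
Slfn8, chr11:83020834-83020873, minus strand: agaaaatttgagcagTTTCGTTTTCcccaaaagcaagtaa
Slfn9, chr11:82991851-82991890, minus strand: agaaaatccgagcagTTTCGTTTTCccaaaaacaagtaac

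The Slfn8 and Slfn9 windows were near copies, with 240 identical bases in 283 aligned columns (84.8%), which includes the matched stretch. The longest shared stretch of Slfn4 and Slfn1 was 15 of 15 identical bases around ACTTCCTGG. The STAT site core TTCNNNGAA, held by 8.30% of all windows, and the NF-kappaB consensus site, held by 0.155%, were in 0 of the 7 members' windows on either strand. The whole window of Slfn4, the member whose level differed, is given below with ACTTCCTGG in capitals, 73 to 65 bases before the start.
Slfn4, chr11:83174936-83175235, plus strand: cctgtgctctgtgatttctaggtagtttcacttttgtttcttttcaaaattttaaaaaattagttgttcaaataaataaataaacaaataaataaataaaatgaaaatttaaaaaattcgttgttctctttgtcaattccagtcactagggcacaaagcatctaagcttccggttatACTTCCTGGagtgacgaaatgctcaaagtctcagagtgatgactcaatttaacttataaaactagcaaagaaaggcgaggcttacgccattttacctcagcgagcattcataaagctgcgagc

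The arrays were alike in scale, with median log2 intensities of 5.78 to 5.83 in sanroque and 5.74 to 5.81 in wild type. Rc3h1 itself averaged 10.15 ± 0.16 in sanroque and 10.00 ± 0.10 in wild type (SD, n = 3 each). The allele is a point mutation, so the level of its transcript is no check of the labels. CD8 T cell markers were high on every array, with list medians of 12.01 to 12.08 in sanroque and 12.11 to 12.20 in wild type. List medians of B cell and myeloid markers in all 3 sanroque arrays lay above those of the wild-type arrays, among which replicate 2 was highest.

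Of the 7 Schlafen genes, 1 rose in sanroque cells, 0 fell and 6 did not pass the test, which called a gene at a limma adjusted p under 0.05 (Benjamini-Hochberg, all genes). The gene that rose was Slfn4, by 8.13-fold. Over all genes, dim ones included, 5.77% passed, 3.26% higher and 2.51% lower in sanroque. A fit on only genes at a log2 intensity of 6 or more in 3 arrays passed 1272 (616 higher and 656 lower). The share among such genes is therefore larger, and it was not computed. Of all genes 1151 passed, 650 higher and 501 lower. Leaving out a sanroque array gave 603 for replicate 1 and 392 for replicate 2, and leaving out a wild-type array gave 218 for replicate 1 and 489 for replicate 2, and Slfn4 passed in each of these fits. The split also moved, to 196 higher and 22 lower without wild type replicate 1 and to 587 higher and 728 lower without sanroque replicate 3. Sanroque and wild-type readings were fully apart in 1 of the 7 genes, against 22.7% of all genes (9.46% higher and 13.2% lower in sanroque). The median log2 fold of the family was 0.08, beside -0.03 over all genes.

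**Figure D1:**
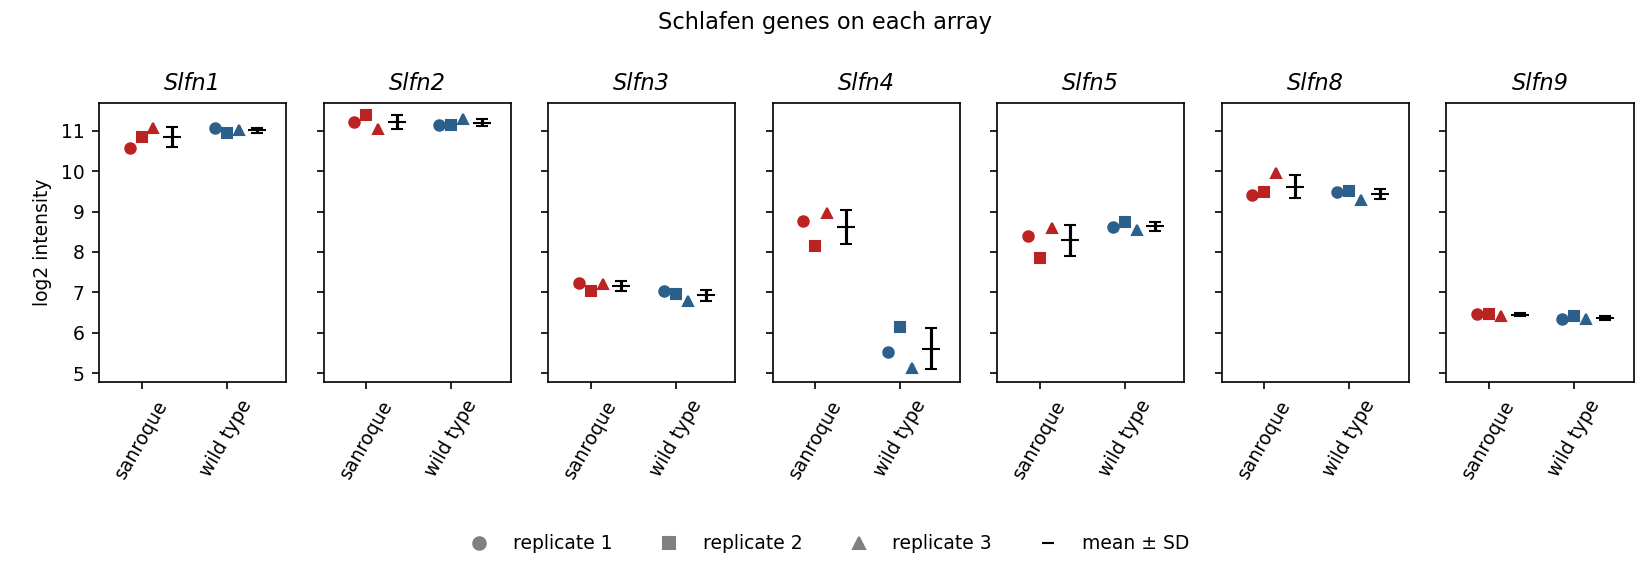
Log2 intensity of each Schlafen gene on each of the 6 arrays, sanroque in red and wild type in blue, with the marker shape giving the replicate number and the black bar the mean ± SD of 3 arrays. Slfn4 lies between 8.15 and 8.96 in sanroque and between 5.14 and 6.14 in wild type, while the groups overlap in each of the other genes.

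Slfn4, the intermediate-length member known from myeloid cells, was measured by probe set 10379636. It read 8.76, 8.15 and 8.96 in sanroque replicates 1 to 3, against 5.53, 6.14 and 5.14 in wild type replicates 1 to 3 (log2 intensity). All sanroque values lay above all wild-type values, and the gap between the groups was wider than the range within either of them. On the linear scale the intensities were 434, 284 and 499 in sanroque and 46.3, 70.6 and 35.1 in wild type.

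The group means of Slfn4 were 8.63 ± 0.42 in sanroque and 5.60 ± 0.51 in wild type (SD, n = 3 each). Its log2 fold was 3.02 ± 0.29 (SE), with a 95% interval of 2.34 to 3.70 (limma, Benjamini-Hochberg adjusted p = 0.00354). In bulk samples such as these, more cells that express a gene and more RNA per cell cannot be told apart. Slfn4 ranked 27 by log2 fold among the 650 genes called higher. Wild-type readings of Slfn4 lay near the array medians of 5.74 to 5.81, a range where much of an array signal can be background, so the fold may understate the change. In 15 alternative fits its log2 fold ran from 2.79 to 3.29 and its adjusted p from 0.000213 to 0.0304 (limma, Benjamini-Hochberg).

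Slfn3, the neighbour of Slfn4 in the cluster and its closest relative by length class, is known from regulatory T cells. It read 7.23, 7.02 and 7.22 in sanroque, against 7.05, 6.95 and 6.79 in wild type. The groups overlapped by 1 array, sanroque replicate 2, which read below wild type replicate 1. The log2 fold was 0.23 ± 0.10 (SE), with a 95% interval of 0.007 to 0.457, which missed the threshold (limma, Benjamini-Hochberg adjusted p = 0.246). Its unadjusted p, like that of Slfn4, was below 0.05 (limma), a level that takes no account of the 19938 genes tested. The share of all genes at that level was not counted.

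The short members kept high readings in both groups. Slfn2, the member tied to T cell quiescence, read 11.21, 11.39 and 11.04 in sanroque, against 11.14, 11.15 and 11.30 in wild type. The groups overlapped throughout, and the log2 fold was 0.014 with a 95% interval of -0.23 to 0.25 (limma, Benjamini-Hochberg adjusted p = 0.975). Its sign turned in 5 of the 15 alternatives.

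Slfn1, the other short member, known for slowing T cell growth when overexpressed, read 10.59, 10.85 and 11.08 in sanroque, against 11.08, 10.94 and 11.02 in wild type. Sanroque replicates 1 and 2 lay below all wild-type arrays, and replicate 3 read as high as the highest of them. The log2 fold was -0.17, with a 95% interval of -0.47 to 0.12 (limma, Benjamini-Hochberg adjusted p = 0.584). It was -0.047 without sanroque replicate 1 and -0.29 without sanroque replicate 3.

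Among the long members, Slfn5, an interferon-inducible nuclear protein, had the lowest log2 fold of the family. Its arrays read 8.40, 7.85 and 8.60 in sanroque, against 8.62, 8.75 and 8.54 in wild type. Sanroque replicates 1 and 2 lay below all wild-type arrays, and replicate 3 lay within their range. The log2 fold was -0.35 ± 0.18 (SE), with a 95% interval of -0.78 to 0.08, which missed the threshold (limma, Benjamini-Hochberg adjusted p = 0.384). With array weights, which put most weight on wild type replicate 1, it was -0.50 and passed (limma, Benjamini-Hochberg adjusted p = 0.0387). Without sanroque replicate 2, the lowest array, it was -0.14.

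Slfn8 read 9.42, 9.48 and 9.95 in sanroque, against 9.50, 9.50 and 9.30 in wild type. Sanroque replicate 3 alone lay above the wild-type range, and without it the log2 fold of 0.18 was 0.019. The 95% interval with all arrays was -0.16 to 0.53 (limma, Benjamini-Hochberg adjusted p = 0.637).

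Slfn9, whose promoter window resembles that of Slfn8, read 6.47, 6.47 and 6.41 in sanroque, against 6.33, 6.42 and 6.35 in wild type. All 6 readings fell within a narrow range, with the groups overlapping by 1 array on each side. The log2 fold was 0.08, with a 95% interval of -0.07 to 0.23 (limma, Benjamini-Hochberg adjusted p = 0.636).

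**Figure D2:**
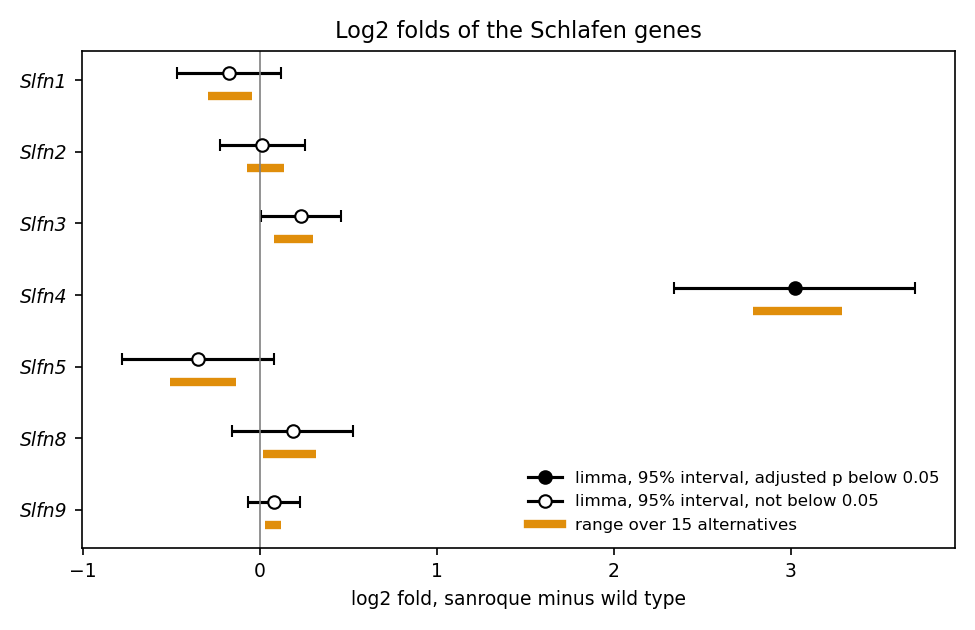
Log2 fold of each Schlafen gene, sanroque minus wild type, with limma's 95% interval (black) and the range over 15 alternative fits (orange). The interval of Slfn4 runs from 2.34 to 3.70, and the highest upper bound among the other 6 genes is 0.53.

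The log2 fold of Slfn4 exceeded that of Slfn3 by 2.79 and that of Slfn5 by 3.37, with the remaining 4 genes between. Slfn4 was singled out for its fold, so these differences are a description. An exact permutation test run for each pair gave p = 0.1, the lowest that 3 against 3 arrays can give, so it decides nothing. Family members are similar in sequence, and how far a probe set of 1 member reads another was not tested.

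The genes also differed in their spread. The SD over sanroque arrays was 3.65 times that over wild-type arrays for Slfn1, 3.66 times for Slfn5, 2.49 times for Slfn8 and 2.04 times for Slfn2, while the ratio was below 1 for Slfn3, Slfn4 and Slfn9. A ratio of at least 2 was seen in 19.7% of all genes. The sanroque array farthest from the others was replicate 1 for Slfn1, replicate 2 for Slfn5 and replicate 3 for Slfn8. The ratio was computed after the values were seen and has no test.

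Other loci of the family and its surroundings were read as well. The pseudogene Slfn10-ps averaged 7.60 ± 0.13 in sanroque and 7.57 ± 0.07 in wild type (SD, n = 3 each). Slfnl1, a family relative on chromosome 4, averaged 5.67 ± 0.15 in sanroque and 5.76 ± 0.14 in wild type. Neither passed. Slfn14 was not analysed here. Of the 3 measured genes on each side of the cluster, Nle1, a ribosome assembly factor, was lower in sanroque, at 8.03 ± 0.07 against 8.49 ± 0.02 in wild type, a log2 change of -0.45 (limma, Benjamini-Hochberg adjusted p = 0.0148). Unc45b, Unc45bos, Ap2b1, Rasl10b and Gas2l2 did not pass and had log2 folds between -0.30 and 0.26.

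Myeloid markers were higher on the same arrays as Slfn4. The list of monocyte, macrophage and neutrophil genes had 17 measured members, of which 14 rose and 0 fell, with a median log2 fold of 2.32. Over all genes 3.26% rose and 2.51% fell. Lyz2, the macrophage and neutrophil lysozyme, averaged 10.74 ± 0.05 in sanroque and 7.61 ± 0.83 in wild type, and Lcn2, a neutrophil granule protein, averaged 10.92 ± 0.53 in sanroque and 6.86 ± 0.58 in wild type (SD, n = 3 each). The log2 fold was larger than that of Slfn4 in 7 of the 17. The summed linear intensity of the list was 9309 to 13921 in sanroque and 1081 to 1907 in wild type. Cd14, a monocyte surface receptor, was below a log2 intensity of 6 on every array.

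Within the groups, the list median of these myeloid genes was 8.45, 8.21 and 8.63 in sanroque replicates 1 to 3, and 5.98, 6.54 and 5.77 in wild type replicates 1 to 3. Slfn4 was lowest in sanroque replicate 2 and highest in wild type replicate 2, as was the list median in each group. The summed intensity did not follow Slfn4 in sanroque, where it was 13921, 10562 and 9309 in replicates 1 to 3. Such a sum is weighted to the brightest genes, and the listed genes did not all move alike. In sanroque replicates 1 to 3 Lcn2 read 11.52, 10.72 and 10.51, while the macrophage receptor gene Csf1r read 7.50, 7.37 and 8.06. The part of myeloid cells in the Slfn4 result was not tested. Without wild type replicate 2, where B cell and myeloid markers were highest among the wild-type arrays, the log2 fold of Slfn4 was 3.29. Slfn4 was itself highest among the wild-type arrays there, so leaving that array out had to raise the fold. Without that array and sanroque replicate 1 together the log2 fold was 3.22. Over all single arrays left out it ran from 2.79 to 3.29.

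**Figure D3:**
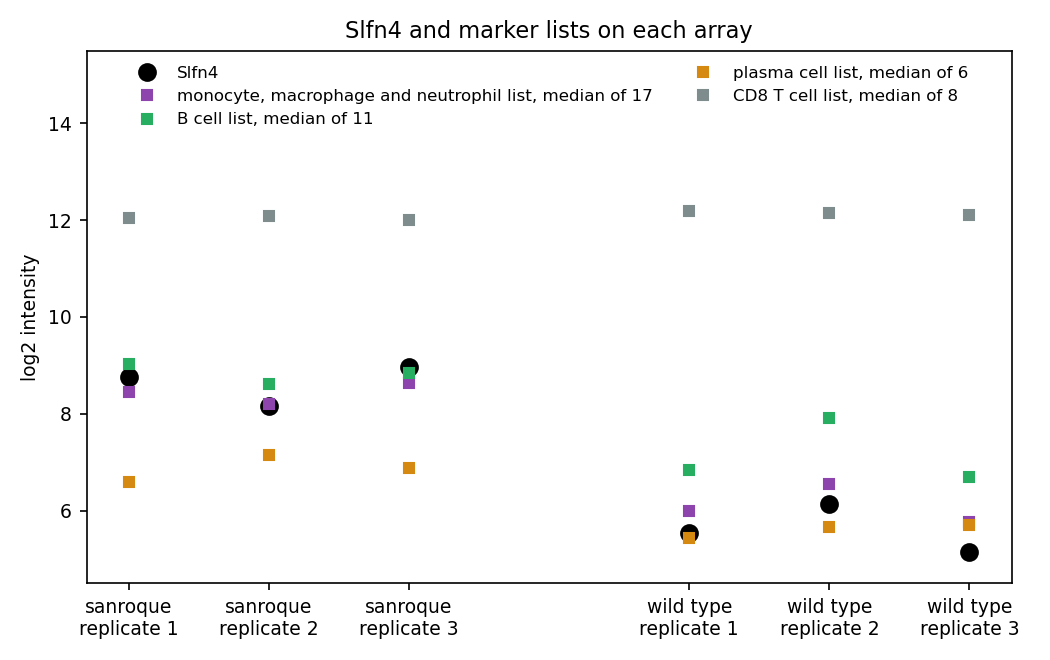
Log2 intensity of Slfn4 (black) on each array, beside the median log2 intensity of 4 marker lists (squares). Slfn4 and the myeloid, B cell and plasma cell medians are higher in the sanroque arrays on the left, and the CD8 T cell median lies between 12.01 and 12.20 on all 6; levels of different probe sets are not comparable with each other.

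The other cell types were read in the same way, and their counts stand beside 3.26% of all genes higher and 2.51% lower in sanroque. Of 11 measured B cell genes 6 rose and 0 fell, and their summed linear intensity was 5406 to 6719 in sanroque and 1680 to 3722 in wild type. Cd74, the invariant chain of MHC class II, averaged 10.86 ± 0.13 in sanroque and 8.78 ± 0.88 in wild type. Cd79b, a B cell receptor chain, differed by 0.72 on the log2 scale without passing. Of 6 plasma cell genes 4 rose, with sums of 1642 to 2224 in sanroque and 526 to 829 in wild type. Jchain, the joining chain of antibodies, had a log2 fold of 3.28, and Xbp1, a factor of secretory cells, of 0.75.

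Of 9 dendritic cell genes, Itgax alone rose, and Xcr1, Clec9a, Siglech, Flt3 and Cd209a were below 6 on every array. The sums of that list were 1686 to 2250 in sanroque and 2151 to 2561 in wild type. Most of each sum came from its brightest genes, Ccr9 and Bst2, which had log2 folds of -0.64 and -0.09 without passing. Bst2 is also in the type I interferon list below, so these sums are no clear measure of dendritic cells. Of 7 NK cell genes 3 rose, among them Eomes, also a factor of CD8 T cells, and the NK receptor gene Klre1 (log2 fold 0.83). Klre1, Ncr1 and Klra8 were below 6 on every array. The NK sums were 875 to 1253 in sanroque and 475 to 550 in wild type, and most of each sum came from Eomes. Adamts14 had a log2 fold of 0.23.

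Of 6 CD4 T cell genes 3 rose, including Ctla4 (2.13) and Ikzf2 (1.07 on the log2 scale), with sums of 723 to 1082 in sanroque and 393 to 439 in wild type. Cd4 itself, at a log2 fold of 0.95, did not pass, and neither did Foxp3 and Cd40lg. The 8 measured CD8 T cell genes had sums of 36365 to 38259 in sanroque and 39599 to 41294 in wild type, and 1 fell. Cd8a and Cd3g had log2 folds of -0.022 and -0.14 without passing.

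Schlafen genes are known interferon targets, so the other genes of that response were read beside them. The type I interferon list had 27 measured members, and 5 of them rose while 0 fell, with a median log2 fold of 0.18. The share passing was 18.5%, against 5.77% of all genes, dim ones included. Array medians of the list were 8.30 to 8.77, so these shares are not like for like. In a fit on genes at a log2 intensity of 6 or more in 3 arrays, 1272 passed, with 5 in this list. Oasl2, an antiviral oligoadenylate synthetase family protein, averaged 8.99 ± 0.29 in sanroque and 7.76 ± 0.11 in wild type (SD, n = 3 each). Stat2, which carries the type I interferon signal, had a log2 fold of 0.79. The nucleic acid sensors Zbp1 and Ifih1 had log2 folds of 0.70 and 0.67. The count of 5 was 2 or 3 when any single array was left out.

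The interferon gamma side of the response was read next. Of 18 measured genes, 12 rose and 0 fell (66.7%, against 5.77% of all genes, dim ones included), with a median log2 fold of 0.83. Iigp1, an immunity-related GTPase, averaged 10.26 ± 0.32 in sanroque and 7.68 ± 0.19 in wild type (SD, n = 3 each). The chemokine genes Cxcl10 and Cxcl9 had log2 folds of 1.61 and 1.59. Irf8, a transcription factor also expressed in myeloid and B cells, had one of 1.52. Leaving out wild type replicate 1 cut the 12 to 6, and leaving out wild type replicate 2 cut them to 7. On the same arrays the myeloid and B cell lists had median log2 folds of 2.32 and 1.39, and their part in these counts was not tested.

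Slfn2 is known for quiescence, and 22 genes of the naive and quiescent T cell state were measured. Of these 0 rose, 3 fell and 19 did not pass, with a median log2 fold of -0.09, beside -0.03 over all genes. The share passing was 13.6%, against 5.77% of all genes, dim ones included, or 2.51% counting lower genes alone. Array medians of the list were 10.38 to 10.72, so these shares are not like for like. In a fit on genes at a log2 intensity of 6 or more in 3 arrays, 1272 passed (656 lower), with 3 in this list. An excess over genes of like level was not tested. Dapl1, a marker of naive T cells, averaged 10.48 ± 0.08 in sanroque and 11.36 ± 0.09 in wild type (SD, n = 3 each). Il7r, a receptor chain for interleukin 7, and Pik3ip1, an inhibitor of PI3 kinase, had log2 folds of -0.69 and -0.68. Leaving out sanroque replicate 3 kept the count at 3, and leaving out any of the other 5 arrays gave 1.

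**Figure D4:**
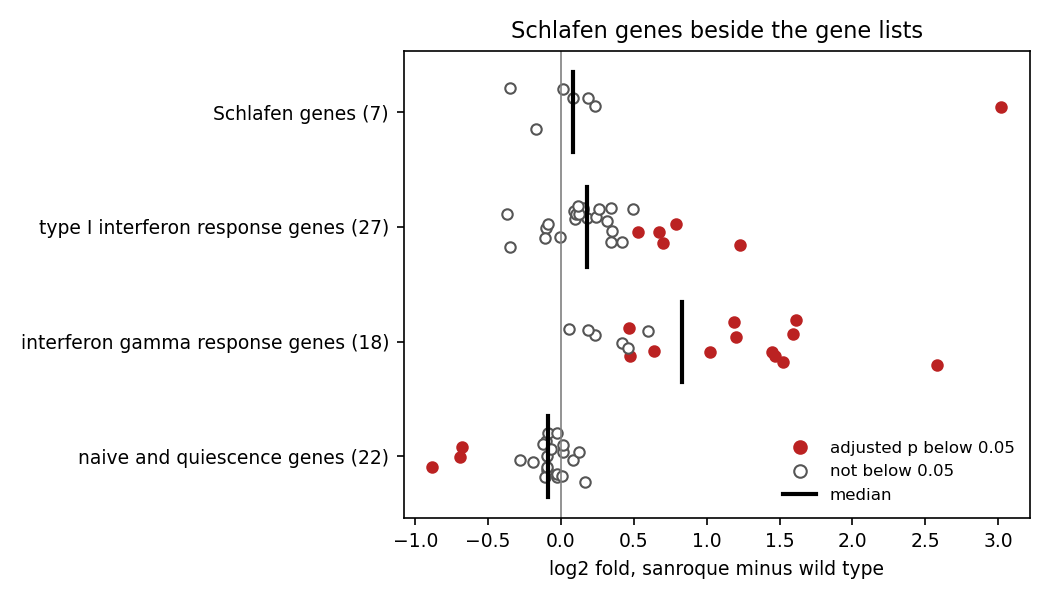
Log2 folds, sanroque minus wild type, of the 7 Schlafen genes and of the genes in 3 lists, with filled points at an adjusted p below 0.05, open points otherwise and a bar at each median. Slfn4 at 3.02 lies to the right of every gene in the 3 lists, and the other 6 Schlafen genes lie between -0.35 and 0.23.

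Genes with the most similar readings over the 6 arrays were sought for each member among genes with a mean log2 intensity of at least 6. Pearson's r over these 6 points is a description, and for Slfn4 it mostly reflects the step between the groups. The genes nearest to Slfn4 were Pou2f2, a transcription factor of B cells (r = 0.997, log2 fold 1.14), and Gaa, the lysosomal alpha-glucosidase (r = 0.997, log2 fold 0.29). Slfn1 was nearest to Drg2 (r = 0.985) and Pja1 (r = 0.985), and Slfn2 to Snord15a (r = 0.988) and Smo (r = 0.969). Slfn3 was nearest to Mast4 (r = 0.985) and Zbtb5 (r = 0.971). Slfn5 was nearest to Tmem81 (r = 0.991) and Lrrc1 (r = 0.988), and Slfn8 to Pggt1b (r = 0.993) and Nedd4 (r = 0.993).

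For Slfn9 the nearest were Car1, a carbonic anhydrase gene of red cell precursors (r = 0.994), and Gngt2 (r = 0.993). Car1 read 8.77, 8.54 and 7.32 in sanroque, against 5.05, 7.24 and 5.76 in wild type. With 9750 genes compared over 6 arrays, values of this size arise for every member, and they carry no p.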

How the data were processed

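RNA of 6 sorted samples was hybridised as biotin-labelled cRNA, per the labels' protocols. The table the authors deposited gives a linear intensity for every probe set on every array, from 9.56 to 31996. The submitters' processing notes name Partek without saying for what. How background was corrected and how probes were summarized and normalized is not stated in the labels. Intensities were converted to log2 and not normalized again. Precision is limited by the number of arrays.

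Of 35399 probe sets, 21789 had exactly 1 symbol in the platform annotation. The probe set with the highest mean was used for each of the 999 genes with several. Symbols were updated by gene ID through GRCm38.p6, which matched 19856 of 19938 genes. Genes were compared with limma 3.58.1 in R 4.3.3 (lmFit, eBayes, two-sided, Benjamini-Hochberg over all genes, no filter on dim genes). The lmFit and eBayes steps were tried separately on simulated independent noise with planted shifts. The alternative fits were not tried in this way. Promoter windows matched all 7 members, and local alignments used Biopython 1.88. Protein sequences were not used here, so protein identity was not computed.

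The members, lists and alternatives were chosen with earlier results of these data known. Named genes were the members, their relatives and 3 neighbours a side, and Rc3h1. Up to 4 called genes with the largest absolute log2 fold were named per list, with the 2 brightest per marker list and the 2 nearest per member. Others, such as Cd14, Itgax, Klre1 and Ncr1, were named after their values were seen.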

Additional observations from a re-analysis of the deposited data

How the results depend on the processing

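Slfn4 kept its direction and passed in all 15 alternatives, with log2 folds of 2.79 to 3.29 when single arrays were left out. Not every alternative could move its fold. Slfn4 has 1 probe set annotated to it alone, and its log2 fold stayed at 3.02 where only the probe set choice, dim genes, variance model or replicate block changed. The number of Schlafen genes passing was 1 in 14 of the 15 alternatives and 2 with array weights, where Slfn5 also passed at -0.50. Slfn2 turned to -0.039 with median centring, -0.008 with sanroque replicate 1 and wild type replicate 2 both left out, and values from -0.0731 to 0.102 when single arrays were left out. The cause was not tested. Over all genes 1151 passed, against 679 with median centring, 4733 with array weights (1998 higher and 2735 lower), 353 with those 2 arrays left out, and 218 to 1315 when single arrays were left out. Type I interferon genes passing numbered 2 with median centring, 9 with array weights (6 higher and 3 lower), 1 with those 2 arrays left out and 2 to 3 when single arrays were left out. Interferon gamma genes numbered 6 to 13, and naive and quiescence genes 1 to 3, when single arrays were left out. The naive and quiescence list gave 5 with array weights (1 higher and 4 lower) and 1 with those 2 arrays left out. Deviations from the group means of same-numbered arrays correlated at -0.05, -0.16 and -0.36. With 3 arrays in a group such deviations are tied to one another, so these values cannot decide whether same-numbered samples were paired. With the replicate number as a block, 301 genes passed over all (271 higher and 30 lower), with 1 Schlafen gene, 1 type I interferon gene and 7 interferon gamma genes. The values used here carry no detection calls, so signal over background was not tested.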
